A study of Mus musculus with 3 samples.

Results

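The genes described are the guidance cues of the mouse genome, 66 of the 32285 genes in the deposited feature list. They were chosen by family name and not by a measured value, though with earlier results of these data known. They comprise 20 semaphorins, 9 plexins, 4 netrins, 4 Unc5 receptors, 4 Robo receptors, 3 slits, 14 Eph receptors and 8 ephrins. They were measured in nuclei from mouse hearts taken 2 weeks after surgery. In MI-DAPA, myocardial infarction was combined with dapagliflozin, an inhibitor of the glucose transporter SGLT2. In MI-NS, infarction was combined with NS, an abbreviation that the labels do not expand, and in Sham-NS a sham operation was combined with NS. Each group was 1 library of single nuclei, the labels give no strain, age, dose or number of animals behind a library, and no test between groups was possible.

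Guidance cues were named for steering growing axons, and the same ligands and receptors are used by vessels, heart tissue and immune cells. Semaphorins signal through plexins, with neuropilins as co-receptors for most of the secreted class 3 members, netrins signal through Dcc, neogenin and Unc5 receptors, and slits signal through Robo receptors. Ephrins are bound to the cell surface and signal through Eph receptor kinases between cells in contact, in both directions. In the heart, Sema3c and Plxnd1 are known for outflow tract development, and ephrin-B2 and Ephb4 for marking arteries and veins.

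The libraries held 8871086 UMIs in MI-DAPA, 10113430 in MI-NS and 13873275 in Sham-NS, where a UMI is 1 distinct RNA molecule counted in a nucleus. After filtering, 5372 MI-DAPA, 7065 MI-NS and 8296 Sham-NS nuclei were kept, with medians of 831, 851 and 790 UMIs in that order. In each library, between 32 and 39 barcodes were also present in another library. Nuclei were clustered and classes were named from markers, and a level is the summed UMIs of a gene in a class scaled to 1000000 UMIs of that class (CPM). Contrasts between libraries were made in the 5 classes with at least 100 nuclei in every library. These were fibroblast-like (1339 MI-DAPA, 2081 MI-NS and 1749 Sham-NS nuclei), vascular endothelial-like (976, 942 and 1729), cardiomyocyte-like (1311, 898 and 1457), macrophage-like (402, 953 and 843) and pericyte-like (353, 269 and 545). In each of the 5, every marker of its own set had UMIs in every library. Brackets give exact Poisson 95% intervals for levels and exact conditional binomial 95% intervals for log2 ratios. They cover counting error only, and differences between animals cannot be told apart from differences between groups. Counts of 3′ tags from nuclei depend on the length and base content of introns, so each gene was compared only with itself.

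Guidance cues took 0.182% of the UMIs of kept nuclei in MI-DAPA, 0.216% in MI-NS and 0.169% in Sham-NS. Over all kept nuclei, 51 of the 66 genes had at least 50 UMIs. The other 15 were Sema3e, Sema4f, Sema5b, Ntn3, Ntn5, Unc5d, Robo3, Slit1, Epha1, Epha3, Epha5, Epha6, Epha8, Epha10 and Efna3, of which Epha8 had 0 UMIs and Sema5b the most, at 49. Every plexin was among the 51, and so were 17 of the 20 semaphorins and 7 of the 8 ephrins.

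The guidance cues differed in the cell classes that held them. In Sham-NS, 20 of the 51 had at least 50 UMIs in the class where they were highest. Of these 20, 16 (80.0%) were at least 3-fold higher there than in all other nuclei, where 47.9% of the 4646 genes with as many UMIs were, and 9 of the 16 were vascular endothelial-like. With no minimum of UMIs in the class, 42 of the 51 were at least 3-fold higher in 1 class. So were 5901 of the 13557 genes with at least 50 UMIs over all kept nuclei. Some of the 42 rested on very few UMIs, such as Efna4 with 1 UMI in endocardial-like nuclei. Among 8 classes with at least 50 nuclei in every library, 20 of the 51 genes had their highest level in the same class in all 3 libraries. Of these, 6 were highest in vascular endothelial-like, 4 in lymphatic endothelial-like, 3 in fibroblast-like, 2 each in cardiomyocyte-like, endocardial-like and pericyte-like, and 1 in macrophage-like nuclei. Being highest did not always set a class apart. The intervals of the highest and next class stayed apart in every library for Plxnd1 and Epha7. For Ephb1 and Ntn1 they overlapped in every library. The map of levels by class shows the levels. No such count was made over all genes, so the 20 describe the guidance cues only.

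**Figure D1:**
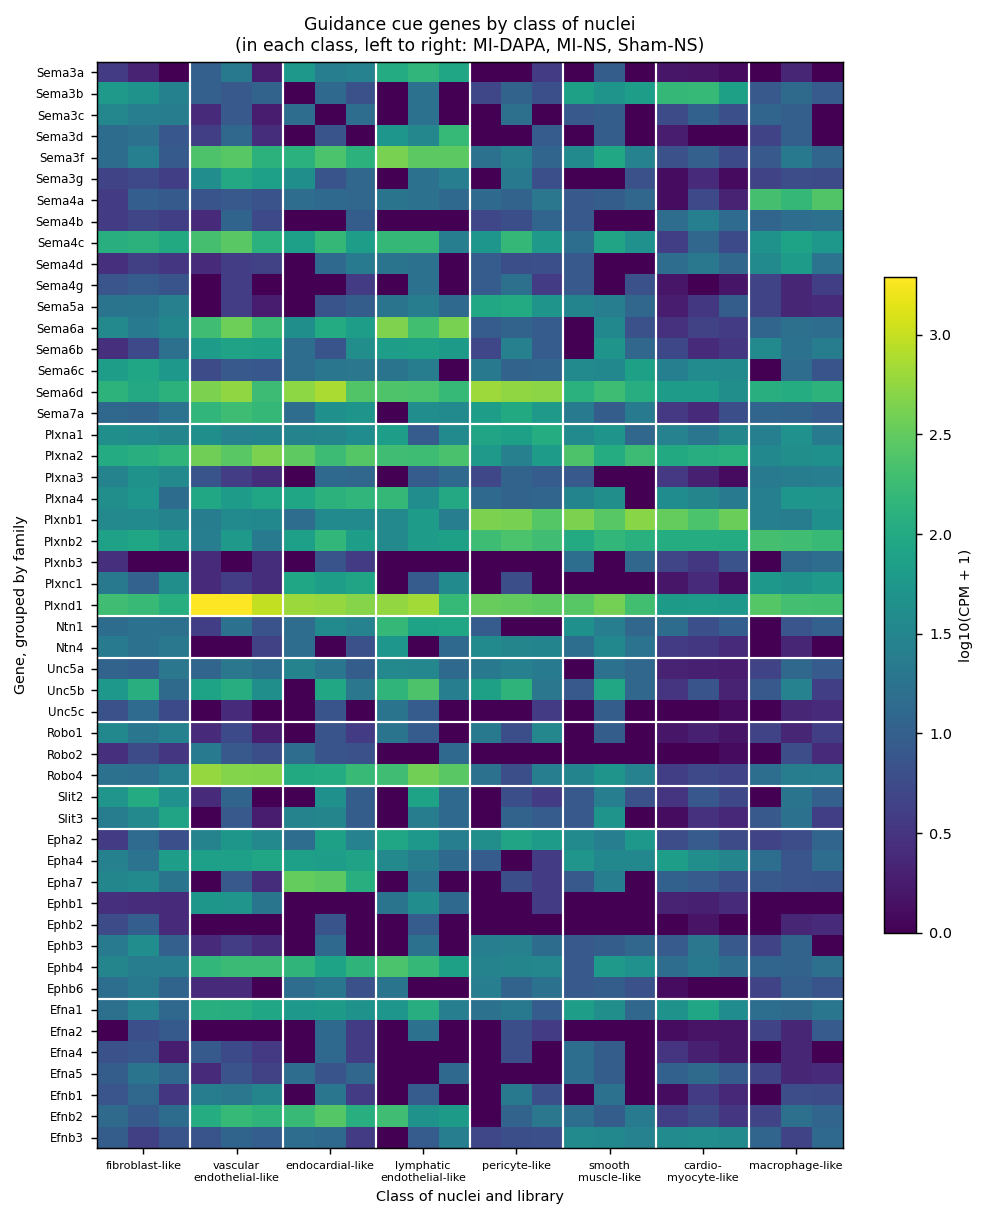
Levels of the 51 guidance cue genes with at least 50 UMIs (rows) in 8 cell classes, each with MI-DAPA, MI-NS and Sham-NS from left to right; colour is log10(CPM + 1). The 9 genes with at least 50 UMIs in vascular endothelial-like nuclei of Sham-NS and a level at least 3-fold above all other nuclei include Plxnd1, Robo4 and Sema3g, and Unc5b is brighter in MI-NS than it is in Sham-NS in several classes.

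Among ligands, the secreted semaphorins were split between classes. Sema3b, a class 3 semaphorin, was 3.78-fold higher in cardiomyocyte-like nuclei than in all other nuclei of Sham-NS, whereas Sema3g, known as an arterial endothelial semaphorin, was 28.3-fold higher in vascular endothelial-like nuclei. Sema3a, a repellent for axons that acts through neuropilin 1, Sema3d and Sema3f were highest, of the 8 classes, in lymphatic endothelial-like nuclei in every library, a class of only 60 MI-DAPA, 86 MI-NS and 78 Sham-NS nuclei. There Sema3d was at 52.0 CPM (3 UMIs) in MI-DAPA, 32.1 CPM in MI-NS and 157 CPM (13 UMIs) in Sham-NS. Of the 8 classes, fibroblast-like nuclei had the highest Sema3c level in every library. Of the membrane semaphorins, Sema4a was 34.0-fold higher in macrophage-like than in other nuclei of Sham-NS, Sema7a and Sema6b were 11.1-fold and 7.04-fold higher in vascular endothelial-like nuclei, and Sema6d was 5.39-fold higher in pericyte-like nuclei. Both slits with at least 50 UMIs were highest in fibroblast-like nuclei of Sham-NS, where Slit2 was 11.3-fold and Slit3 28.3-fold above the other nuclei. The netrin Ntn1 was highest, of the 8 classes, in lymphatic endothelial-like nuclei. It was there at 156 CPM (9 UMIs) in MI-DAPA, 80.2 CPM (10 UMIs) in MI-NS and 84.7 CPM (7 UMIs) in Sham-NS. Ephrin-B2 (Efnb2) was 9.88-fold higher in vascular endothelial-like nuclei of Sham-NS, and ephrin-B3 (Efnb3) was 4.04-fold higher in cardiomyocyte-like nuclei. For some of these ligands the next class of Sham-NS was close, with overlapping intervals. Sema3b was at 73.8 CPM in cardiomyocyte-like and 66.6 CPM in smooth muscle-like nuclei, and Efnb3 at 36.3 and 27.7 CPM. In vascular endothelial-like nuclei Efnb2 was at 135.5 CPM, against 113 CPM in endocardial-like nuclei. Sema6b was there at 72.9 CPM, against 60.5 CPM in lymphatic endothelial-like nuclei.

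The receptors were led by the endothelial set. In Sham-NS, Robo4, a Robo receptor restricted to endothelium, was 18.2-fold higher in vascular endothelial-like nuclei than in all others, Plxnd1, the receptor for Sema3e and for Sema3 ligands with neuropilins, was 7.95-fold higher, Ephb4, the venous partner of ephrin-B2, 7.03-fold and Plxna2 3.56-fold. The membrane semaphorin Sema4c was 3.54-fold higher in the same class. Its level there was 125 CPM, with fibroblast-like nuclei next at 99.1 CPM and overlapping intervals. Ephb4 was at 175 CPM in vascular endothelial-like and 137.5 CPM in endocardial-like nuclei of Sham-NS, also with overlap. Plxna4 was 4.47-fold higher in endocardial-like nuclei. Epha7 was also highest in endocardial-like nuclei in every library, at 323.5 CPM (205 to 486) in MI-DAPA, 283 CPM (207 to 377) in MI-NS and 113 CPM (80.9 to 153) in Sham-NS. For Epha7, both infarct libraries lay above Sham-NS with no overlap of intervals and overlapped each other, in a class of 79 MI-DAPA, 132 MI-NS and 302 Sham-NS nuclei. In pericyte-like nuclei, Plxna1 had its highest level in every library.

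In fibroblast-like nuclei, the infarct library MI-NS held more RNA of the netrin receptor Unc5b, of Slit2 and of the Eph receptors Ephb3 and Epha7 than Sham-NS, and less of Slit3, Epha4 and the plexin Plxnc1. Of 29 guidance cues with at least 50 UMIs over both libraries, 7 were at least 2-fold higher in MI-NS and 3 at least 2-fold lower, where 9.2% of all 8470 measurable genes were at least 2-fold higher and 3.77% lower. The median log2 ratio was 0.33 over the 29 and 0.12 over all measurable genes. A gene is described singly when, in the library where it was higher, 10 or more nuclei of that class had a UMI of it and its level was not below that of all other nuclei. Plxna4, Sema3f and Efna1, the other 3 of the 7, did not meet that condition.

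Unc5b, a netrin receptor of the Unc5 family that signals repulsion and is known from endothelial tip cells, lies at chr10:60762593-60831581 on the minus strand of mm10. In fibroblast-like nuclei it was at 55.7 CPM (42.6 to 71.6) in MI-DAPA, 114.5 CPM (99.5 to 131) in MI-NS and 12.9 CPM (7.50 to 20.6) in Sham-NS. No pair of these 3 intervals overlapped, with MI-NS highest and Sham-NS lowest. The log2 ratio was 3.11 (2.44 to 3.96) for MI-NS against Sham-NS and -1.03 (-1.47 to -0.62) for MI-DAPA against MI-NS. MI-DAPA remained above Sham-NS, with a log2 ratio of 2.08 (1.32 to 2.98).

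Slit2, the secreted Robo ligand at chr5:47983138-48307733 on the plus strand, was at 51.2 CPM (38.6 to 66.4) in MI-DAPA, 104 CPM (89.9 to 120) in MI-NS and 45.4 CPM (34.6 to 58.5) in Sham-NS. Only MI-NS stood apart. The log2 ratio was 1.19 (0.77 to 1.64) for MI-NS against Sham-NS, -1.02 (-1.48 to -0.59) for MI-DAPA against MI-NS and 0.17 (-0.38 to 0.72) for MI-DAPA against Sham-NS. Unc5b and Slit2 were the only 2 of 26 measurable guidance cues that were at least 2-fold lower in MI-DAPA than in MI-NS in these nuclei, with 0 at least 2-fold higher. Over all 8285 genes measurable in that contrast, 3.58% were at least 2-fold lower and 1.07% higher. Over the 10 other settings of the processing that were tried the ratio of MI-DAPA to MI-NS stayed below 0 for both genes, between -1.21 and -0.63 for Unc5b and between -1.53 and -0.95 for Slit2, but was short of 2-fold in 5 of the 10 for each. The log2 ratio of Slit2 for MI-NS against Sham-NS lay between 0.51 and 1.22 in the same settings. It was short of 2-fold when each nucleus was given a class by its marker level and when nuclei were thinned to 1000 UMIs. MI-NS is shared by the contrasts with Sham-NS and with MI-DAPA, so that its own error enters both.

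The promoters of Unc5b and Slit2 are shown because both genes were higher in MI-NS and lower in MI-DAPA, and that of Sema6d because it had the largest endothelial ratio of the genes described singly. Each run is 300 bases of RefSeq sequence on GRCm38.p6, 250 before and 50 after the start annotated in RefSeq, 5′ to 3′ on the gene's strand, with every GC box (GGGCGG on either strand, read here also as CCGCCC) in capitals. The windows are chr10:60831532-60831831 on the minus strand for Unc5b, chr5:47982905-47983204 on the plus strand for Slit2 and chr2:124089719-124090018 on the plus strand for Sema6d, for which the table has 2 promoters and the one at the start of the annotated gene is given.
Unc5b promoter: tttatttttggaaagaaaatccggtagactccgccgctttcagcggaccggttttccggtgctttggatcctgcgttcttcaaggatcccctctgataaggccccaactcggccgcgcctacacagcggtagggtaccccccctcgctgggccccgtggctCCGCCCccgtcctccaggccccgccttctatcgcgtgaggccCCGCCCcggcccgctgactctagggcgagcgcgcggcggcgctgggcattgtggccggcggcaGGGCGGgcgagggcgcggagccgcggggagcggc
Slit2 promoter: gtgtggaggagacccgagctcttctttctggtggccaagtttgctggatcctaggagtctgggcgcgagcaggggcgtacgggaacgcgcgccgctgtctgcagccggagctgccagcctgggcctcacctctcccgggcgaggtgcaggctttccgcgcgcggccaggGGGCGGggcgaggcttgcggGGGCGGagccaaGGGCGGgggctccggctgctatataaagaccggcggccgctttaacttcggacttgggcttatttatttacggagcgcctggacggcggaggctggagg
Sema6d promoter: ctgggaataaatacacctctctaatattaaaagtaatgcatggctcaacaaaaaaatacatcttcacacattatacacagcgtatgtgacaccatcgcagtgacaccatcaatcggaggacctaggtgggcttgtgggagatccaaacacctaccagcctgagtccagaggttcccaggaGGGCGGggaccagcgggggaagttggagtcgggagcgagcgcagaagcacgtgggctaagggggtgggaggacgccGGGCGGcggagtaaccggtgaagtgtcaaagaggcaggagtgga
Unc5b and Slit2 had 3 GC boxes each and Sema6d had 2. The AP-1 motif (TGANTCA) and the TEAD motif (GGAATG) were also searched on both strands, and neither was found in these 3 windows. Of the 66 guidance cues, 57 had a promoter in the RefSeq table. A GC box was present in 41 of the 57 (71.9%), against 35.7% of 32851 promoters, a TEAD motif in 7 (12.3%, against 14.7%) and an AP-1 motif in 1 (1.75%, against 7.81%). Each guidance cue had 1 promoter searched, while the 32851 were all promoters of the RefSeq table, with several for some genes. The shares were also not set against promoters of like base content, and a match is a run of letters, not evidence of binding.

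Slit3, the other slit of the heart, went the opposite way to Slit2 in MI-NS. It was at 23.8 CPM (15.5 to 34.8) in MI-DAPA, 34.2 CPM (26.3 to 43.7) in MI-NS and 81.0 CPM (66.4 to 97.8) in Sham-NS. Both infarct libraries lay below Sham-NS and their own intervals overlapped. The log2 ratio was -1.24 (-1.72 to -0.78) for MI-NS and -1.75 (-2.45 to -1.14) for MI-DAPA, both against Sham-NS. When each nucleus was given a class by its marker level instead of by cluster, the MI-NS ratio of Slit3 was -0.04. Robo1, a slit receptor, was at 32.9 CPM in MI-DAPA, 18.4 CPM in MI-NS and 26.5 CPM in Sham-NS fibroblast-like nuclei. The level intervals of Robo1 overlapped, and its log2 ratio was 0.83 (0.12 to 1.55) for MI-DAPA against MI-NS.

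The Eph receptors differed in both directions in these nuclei. Ephb3, a receptor for B-type ephrins, was at 21.01 CPM (13.3 to 31.5) in MI-DAPA, 39.6 CPM (31.0 to 49.8) in MI-NS and 9.08 CPM (4.69 to 15.9) in Sham-NS, a log2 ratio of 2.08 (1.23 to 3.14) for MI-NS against Sham-NS. Its MI-NS interval did not overlap that of Sham-NS and just met that of MI-DAPA, with a log2 ratio of -0.89 (-1.66 to -0.22) for MI-DAPA against MI-NS. Epha4, which binds ephrins of both types, was at 26.5 CPM (17.7 to 38.0) in MI-DAPA, 16.8 CPM (11.4 to 23.9) in MI-NS and 69.6 CPM (56.1 to 85.4) in Sham-NS. Both infarct libraries were below Sham-NS, with log2 ratios of -1.38 (-2.05 to -0.78) for MI-DAPA and -2.03 (-2.69 to -1.45) for MI-NS. Epha7 was at 31.1 CPM in MI-DAPA, 35.8 CPM in MI-NS and 17.4 CPM in Sham-NS, with a log2 ratio of 1.02 (0.34 to 1.79) for MI-NS against Sham-NS. That ratio was -0.12 when nuclei were thinned to 1000 UMIs. Plxnc1, the receptor for Sema7a, was at 20.1 CPM (12.6 to 30.4) in MI-DAPA, 9.77 CPM (5.79 to 15.4) in MI-NS and 41.6 CPM (31.4 to 54.2) in Sham-NS. Sham-NS was the highest for Plxnc1, and the intervals of the infarct libraries overlapped. In a fibroblast-like cluster led by Vcan, the order of Plxnc1 was turned, at 19.8 CPM in MI-DAPA, 17.4 CPM in MI-NS and 11.1 CPM (2 UMIs) in Sham-NS.

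**Figure D2:**
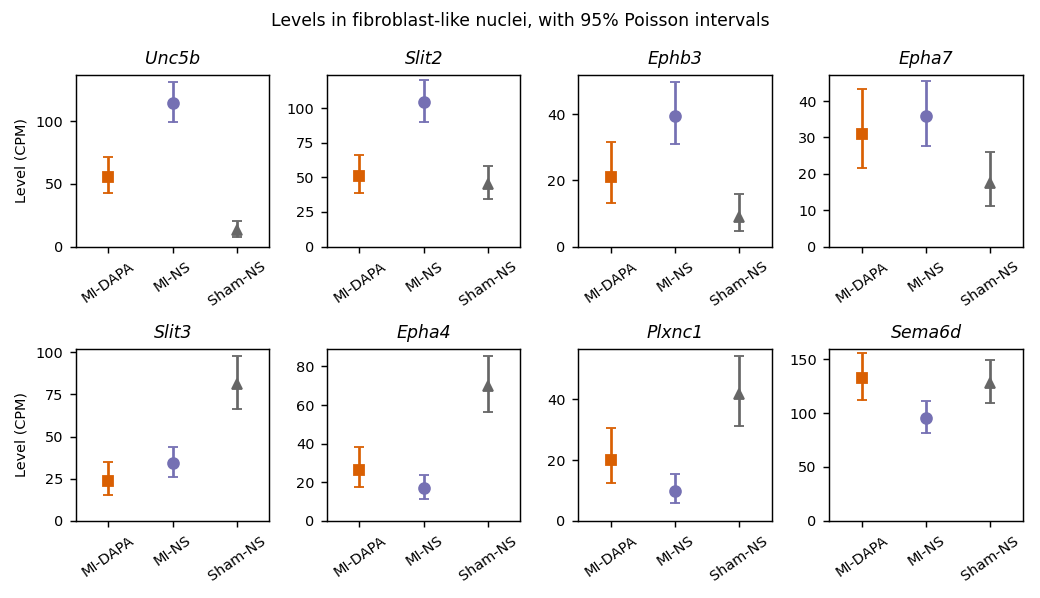
Levels (CPM, with exact Poisson 95% intervals) of 8 guidance cues in fibroblast-like nuclei of MI-DAPA, MI-NS and Sham-NS, 1 library per group. Unc5b, Slit2 and Ephb3 are highest in MI-NS, while Slit3, Epha4 and Plxnc1 are highest in Sham-NS.

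Against Sham-NS, 3 of 24 measurable guidance cues were at least 2-fold higher in MI-DAPA fibroblast-like nuclei and 3 at least 2-fold lower, where 4.13% and 2.65% of all measurable genes were. The 3 higher ones were Unc5b and, below the level of other nuclei, Plxna4 and Sema3b. The 3 lower ones were Slit3, Epha4 and Plxnc1, the last with a log2 ratio of -1.03 (-1.83 to -0.31). Sema6d, by contrast with its endothelial level, was at 132 CPM (112 to 156) in MI-DAPA, 95.5 CPM (81.9 to 111) in MI-NS and 128 CPM (109 to 149) in Sham-NS.

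The fibroblast-like class was made of different clusters in different libraries, and several of these genes differed between clusters. A cluster led by Col11a1 and Comp held 494 MI-DAPA, 1377 MI-NS and 11 Sham-NS nuclei. One led by Gsta3 and Dpep1 held 158, 32 and 1517 nuclei in the same order of libraries, and one led by Duox1 and Vcan held 687, 672 and 221. The guidance cues were kept out of the genes used for clustering. Within the Comp-led cluster, Unc5b was at 70.1 CPM in MI-DAPA and 143 CPM in MI-NS, a log2 ratio of -1.01 (-1.64 to -0.47). Slit2 was there at 56.1 CPM in MI-DAPA and 119.7 CPM in MI-NS, a log2 ratio of -1.07 (-1.78 to -0.47), and Ephb3 at 18.7 CPM in MI-DAPA and 46.6 CPM in MI-NS. In the Vcan-led cluster, Unc5b was at 54.0 CPM in MI-DAPA and 55.5 CPM in MI-NS, a log2 ratio of -0.04 (-0.81 to 0.72). The difference between the 2 clusters was not tested.

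Between the infarct and sham libraries, the Vcan-led cluster was the only one with enough nuclei in all 3. There Unc5b had 55.5 CPM in MI-NS and 11.1 CPM in Sham-NS (32 and 2 UMIs), and Slit2 had 71.1 CPM in MI-NS and 22.3 CPM in Sham-NS (41 and 4 UMIs). Slit3 was in that cluster at 21.6 CPM in MI-DAPA, 27.8 CPM in MI-NS and 27.9 CPM in Sham-NS, and Epha4 at 30.6, 19.1 and 27.9 CPM in the same order, in contrast to the class as a whole. In the Dpep1-led cluster of Sham-NS, Slit3 was at 89.2 CPM and Epha4 at 76.8 CPM, and in that of MI-DAPA at 45.2 CPM (5 UMIs) and 27.1 CPM (3 UMIs). Their lower class levels after infarction therefore moved together with the cluster make-up of the class, and its part in them cannot be told apart at this depth.

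**Figure D3:**
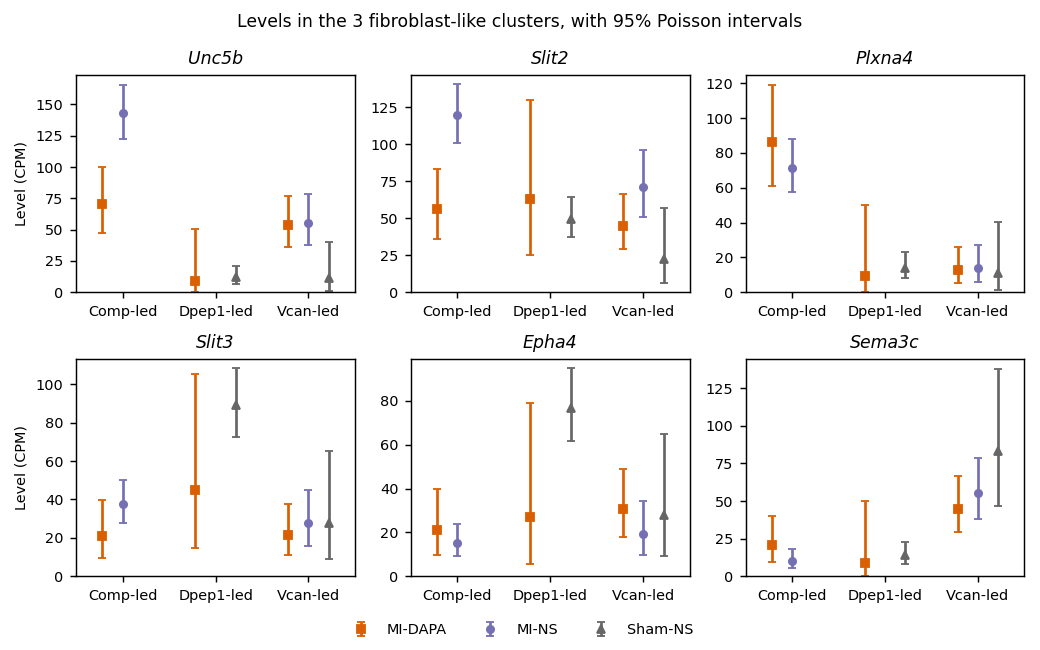
Levels (CPM, with exact Poisson 95% intervals) of 6 guidance cues in the Comp-led, Dpep1-led and Vcan-led fibroblast-like clusters, drawn where a library had enough nuclei. Unc5b and Slit2 in the Comp-led cluster lie lower in MI-DAPA than in MI-NS, and Slit3 and Epha4 are highest in the Dpep1-led nuclei of Sham-NS.

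Some genes marked a cluster in the libraries where it could be measured. Plxna4 was at 86.4 CPM in MI-DAPA and 71.5 CPM in MI-NS in the Comp-led cluster, but at 12.6 CPM in MI-DAPA and 13.9 CPM in MI-NS in the Vcan-led cluster. Sema3c had the opposite pattern, with 45.0 CPM in MI-DAPA and 55.5 CPM in MI-NS in the Vcan-led cluster and 21.0 CPM and 10.4 CPM in the Comp-led cluster, in the same order. Plxnd1 was at 196 CPM in MI-DAPA, 184 CPM in MI-NS and 61.3 CPM in Sham-NS within the Vcan-led cluster, a log2 ratio of 1.53 (0.69 to 2.63) for MI-NS against Sham-NS.

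Other cell classes were checked for RNA carried over. Fibroblast markers summed to 12100 CPM in MI-DAPA, 13800 CPM in MI-NS and 7390 CPM in Sham-NS within fibroblast-like nuclei, and to 666, 1790 and 606 CPM in vascular endothelial-like nuclei of the same libraries. All 12 fibroblast markers had UMIs in fibroblast-like nuclei. Mesothelial markers, 7 in all, summed to 11.9 CPM in MI-DAPA, 56.4 CPM in MI-NS and 5.3 CPM in Sham-NS in fibroblast-like nuclei, with 4, 7 and 2 of the 7 detected. In pericyte-like nuclei fibroblast markers summed to 2650 CPM in MI-DAPA, 3590 CPM in MI-NS and 2000 CPM in Sham-NS, and mesothelial markers to 4.06, 76.9 and 5.4 CPM, with 1, 6 and 1 of 7 detected. In macrophage-like nuclei fibroblast markers summed to 1620 CPM in MI-DAPA, 3130 CPM in MI-NS and 1250 CPM in Sham-NS. Mesothelial markers there summed to 7.32, 83.3 and 6.18 CPM in the same order. In cardiomyocyte-like nuclei fibroblast markers summed to 105, 352 and 87.1 CPM and mesothelial markers to 0.84, 15.9 and 1.04 CPM. Cardiomyocyte markers ran the other way, with MI-NS lowest, at 5280 CPM in MI-DAPA, 3160 CPM in MI-NS and 6000 CPM in Sham-NS in fibroblast-like nuclei and at 6290, 3580 and 7590 CPM in vascular endothelial-like nuclei. Malat1 took 5.97% of UMIs in MI-DAPA, 9.31% in MI-NS and 5.47% in Sham-NS, and the median mitochondrial share was 2.42%, 1.48% and 3.32% in the same order. The part of these differences in the results was not tested. Clock genes differed with the infarct libraries in every class, with median log2 ratios for MI-NS against Sham-NS between -0.57 in cardiomyocyte-like and -3.03 in pericyte-like nuclei. No hour of collection is in the labels, and its part cannot be told apart from that of the groups.

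In vascular endothelial-like nuclei, MI-NS held more RNA of the membrane semaphorins Sema6d, Sema4c and Sema6a, of the secreted Sema3f, and of the receptors Unc5b and Ephb1 than Sham-NS. Of 21 measurable guidance cues, 7 were at least 2-fold higher in MI-NS and 0 at least 2-fold lower, where 6.39% of all 6193 measurable genes were higher and 2.7% lower. All 7 measurable semaphorins were higher in MI-NS on the CPM scale, with a median log2 ratio of 1.04, and 6 of 7 with TMM scaling, where Sema6b was lower, while the median was 0.39 over the 21 guidance cues and 0.09 over all genes. The seventh gene, Plxnb2, was below the level of other nuclei and is not described singly.

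Sema6d, a membrane semaphorin that signals through Plxna1 in heart development, lies at chr2:124089969-124667770 on the plus strand. It was at 435 CPM (386 to 488) in MI-DAPA, 546 CPM (492 to 604) in MI-NS and 177 CPM (153 to 202) in Sham-NS. Both infarct libraries lay well above Sham-NS, and MI-DAPA lay below MI-NS with intervals that did not overlap. The log2 ratio was 1.63 (1.38 to 1.88) for MI-NS against Sham-NS, 1.30 (1.04 to 1.56) for MI-DAPA against Sham-NS and -0.33 (-0.56 to -0.10) for MI-DAPA against MI-NS. In endocardial-like nuclei Sema6d was at 534.5 CPM in MI-DAPA, 750.3 CPM in MI-NS and 247.5 CPM in Sham-NS, and in pericyte-like nuclei at 646 CPM, 544 CPM and 516 CPM in the same order.

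Sema4c, a membrane semaphorin that binds Plxnb2, was at 205 CPM (172 to 243) in MI-DAPA, 280.2 CPM (242 to 323) in MI-NS and 125 CPM (106 to 147) in Sham-NS. Sema3f, a class 3 semaphorin that acts through neuropilin 2, was at 234 CPM (199 to 274) in MI-DAPA, 269.9 CPM (232 to 312) in MI-NS and 130.4 CPM (110 to 153) in Sham-NS. Both genes were higher in both infarct libraries than in Sham-NS, with no overlap, and the infarct libraries overlapped for Sema3f and met at the edge for Sema4c. Sema6a, a partner of Plxna2 and Plxna4, was at 189 CPM (157 to 225) in MI-DAPA, 358 CPM (315 to 406) in MI-NS and 174 CPM (151 to 200) in Sham-NS. Only MI-NS stood apart for Sema6a, at a log2 ratio of 1.04 (0.77 to 1.32) against Sham-NS, with MI-DAPA at -0.92 (-1.25 to -0.61) against MI-NS. With TMM scaling, the MI-NS ratios of Sema4c, Sema3f and Sema6a against Sham-NS were short of 2-fold. They were also short of it when clusters left out as mixed were kept.

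Sema3g was the guidance cue with the largest ratio between the infarct libraries in vascular endothelial-like nuclei. It was at 39.6 CPM (25.8 to 58.0) in MI-DAPA, 95.9 CPM (74.0 to 122) in MI-NS and 71.2 CPM (56.7 to 88.2) in Sham-NS. MI-DAPA was below MI-NS, with a log2 ratio of -1.26 (-1.99 to -0.60), and its interval also touched that of Sham-NS. The ratio was -0.64 with a stricter filter on nuclei (at least 500 genes and at most 5% mitochondrial UMIs) and -0.56 when clusters left out as mixed were kept. In a finer clustering, Sema3g sat mainly in a cluster that it led together with the arterial genes Hey1 and Sox17, of 142 MI-DAPA, 130 MI-NS and 261 Sham-NS nuclei. Within that cluster Sema3g was at 253.5 CPM (161 to 380) in MI-DAPA, 542 CPM (398 to 720) in MI-NS and 327 CPM (248 to 424) in Sham-NS, and was again lowest in MI-DAPA. The MI-DAPA and MI-NS intervals did not overlap there, and that of Sham-NS overlapped both.

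For MI-DAPA against MI-NS, 2 of 19 measurable guidance cues in vascular endothelial-like nuclei, Sema3g and Plxnb2, were at least 2-fold lower and 0 at least 2-fold higher, where 3.47% and 0.691% of all measurable genes were. All 7 measurable semaphorins were lower in MI-DAPA than in MI-NS on both scales, with a median log2 ratio of -0.35 on the CPM scale, against -0.29 over the 19 guidance cues and -0.02 over all genes. Against Sham-NS, 2 of 21, Sema6d and Ephb1, were at least 2-fold higher in MI-DAPA and 0 lower, where 1.97% and 1.95% of all measurable genes were. This ratio of Ephb1, a log2 ratio of 1.55, was short of 2-fold with the stricter filter and in nuclei thinned to 1000 UMIs. Its lowest value over the other settings was 0.20.

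Of the endothelial receptors, Plxnd1 was at 1938 CPM in MI-DAPA, 1916 CPM in MI-NS and 979.6 CPM in Sham-NS, log2 ratios against Sham-NS of 0.98 (0.87 to 1.10) and 0.97 (0.85 to 1.08). The infarct libraries overlapped each other and lay just under 2-fold above Sham-NS. Ephb1, a receptor for B-type ephrins, was at 53.2 CPM (37.1 to 74.0) in MI-DAPA, 50.2 CPM (34.7 to 70.1) in MI-NS and 18.01 CPM (11.2 to 27.5) in Sham-NS, again with the infarct libraries together above Sham-NS. With the same stricter filter the MI-NS ratio of Ephb1 was 0.28, against 1.46 in all kept nuclei. Unc5b was at 79.1 CPM (59.1 to 104) in MI-DAPA, 112 CPM (88.3 to 140) in MI-NS and 42.0 CPM (31.1 to 55.6) in Sham-NS. Plxna2 ran the other way, at 374 CPM in MI-DAPA, 277 CPM in MI-NS and 439 CPM in Sham-NS, with a log2 ratio of -0.66 (-0.91 to -0.42) for MI-NS against Sham-NS and 0.43 (0.15 to 0.71) for MI-DAPA against MI-NS. Of the arterial and venous pair, Efnb2 was at 106.5, 156 and 135.5 CPM and Ephb4 at 149, 171 and 175 CPM in MI-DAPA, MI-NS and Sham-NS, in that order. The log2 ratio for MI-DAPA against MI-NS was -0.55 (-1.01 to -0.11) for Efnb2 and -0.20 (-0.60 to 0.20) for Ephb4.

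**Figure D4:**
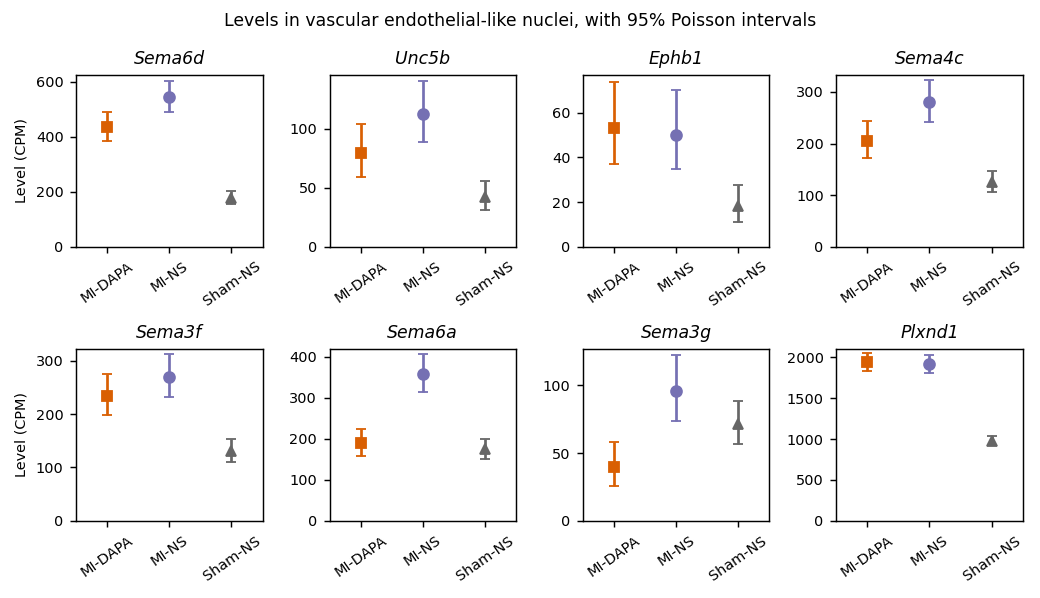
Levels (CPM, with exact Poisson 95% intervals) of 8 guidance cues in vascular endothelial-like nuclei of MI-DAPA, MI-NS and Sham-NS, 1 library per group. Sema6d, Ephb1, Sema4c, Sema3f and Plxnd1 are lowest in Sham-NS, and Sema3g is lowest in MI-DAPA.

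This class too was made of a Timp4-led and a Prnd-led cluster in unequal parts. The Timp4-led cluster held 568 MI-DAPA, 556 MI-NS and 1639 Sham-NS nuclei, and the Prnd-led one held 408, 386 and 90 in the same order. In the Timp4-led cluster Sema6d was at 337 CPM in MI-DAPA, 460.5 CPM in MI-NS and 174 CPM in Sham-NS, so that the order of the libraries was that of the whole class. In the Prnd-led cluster Sema6d was at 567 CPM in MI-DAPA, 657 CPM in MI-NS and 220.6 CPM (14 UMIs) in Sham-NS. Plxnd1 was at 1656 CPM in MI-DAPA, 1564 CPM in MI-NS and 916 CPM in Sham-NS in the Timp4-led cluster, but at 2317, 2377 and 2080.0 CPM in the Prnd-led one. Unc5b differed between the clusters in the contrast of the infarct libraries. It was at 106 CPM in MI-DAPA and 85.9 CPM in MI-NS in the Timp4-led cluster, and at 42.8 CPM in MI-DAPA and 146 CPM in MI-NS in the Prnd-led one, a log2 ratio of -1.73 (-2.84 to -0.83) in the Prnd-led nuclei. The difference between the 2 clusters was not tested.

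In cardiomyocyte-like nuclei, MI-NS held more Sema3b and ephrin-A1 (Efna1) and less Plxnb1 than Sham-NS. Of 17 measurable guidance cues, 3 were at least 2-fold higher in MI-NS and 0 lower, where 7.46% of all 8152 measurable genes were higher and 2.33% lower. The third was Ephb3, which was below the level of other nuclei. All 5 measurable semaphorins were higher in MI-NS, and 4 of 5 with TMM scaling, where Sema6c was lower, with a median log2 ratio of 0.82 on the CPM scale, against 0.45 over the 17 and 0.13 over all genes. The class held a main cluster of 1258 MI-DAPA, 738 MI-NS and 1454 Sham-NS nuclei and a Myh7-led cluster of 53, 160 and 3 in the same order. In the main cluster Sema3b was at 148 CPM in MI-DAPA, 151 CPM in MI-NS and 73.1 CPM in Sham-NS, Efna1 at 47.4, 88.2 and 38.5 CPM and Epha4 at 70.6, 44.1 and 30.7 CPM, in the same order of libraries as in the whole class.

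Sema3b was at 153 CPM (140 to 166) in MI-DAPA, 159.6 CPM (143 to 178) in MI-NS and 73.8 CPM (65.5 to 82.9) in Sham-NS. The infarct libraries overlapped and both lay above Sham-NS, at log2 ratios of 1.05 (0.84 to 1.26) and 1.11 (0.88 to 1.35). Efna1, a membrane ligand of Epha2 and other EphA receptors, was at 47.6 CPM (40.7 to 55.3) in MI-DAPA, 88.5 CPM (76.2 to 102) in MI-NS and 38.3 CPM (32.4 to 45.0) in Sham-NS. For Efna1, MI-NS alone stood apart, at 1.21 (0.89 to 1.53) against Sham-NS, and MI-DAPA was at -0.89 (-1.20 to -0.59) against MI-NS. With TMM scaling the MI-NS ratios of Sema3b and Efna1 against Sham-NS were short of 2-fold. In nuclei thinned to 1000 UMIs, Sema3b was short of 2-fold against Sham-NS in both infarct libraries. Plxnb1, the receptor for Sema4d, was at 320.3 CPM (302 to 339) in MI-DAPA, 224 CPM (204 to 245) in MI-NS and 358 CPM (339 to 377) in Sham-NS. MI-NS was the lowest for Plxnb1, with a log2 ratio of -0.68 (-0.83 to -0.53) against Sham-NS, and MI-DAPA was at 0.52 (0.36 to 0.68) against MI-NS.

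Epha4 had another order in cardiomyocyte-like than in fibroblast-like nuclei. It was at 67.5 CPM (59.2 to 76.5) in MI-DAPA, 41.4 CPM (33.1 to 51.1) in MI-NS and 30.6 CPM (25.3 to 36.6) in Sham-NS. MI-DAPA was highest and overlapped neither of the others, with a log2 ratio of 1.14 (0.82 to 1.47) against Sham-NS and 0.70 (0.34 to 1.08) against MI-NS. For MI-DAPA against MI-NS, 1 of 19 measurable guidance cues, the netrin Ntn1, was at least 2-fold higher and 1, Ephb3, at least 2-fold lower, where 0.425% and 4.47% of all measurable genes were. Ntn1 was at 13.4 CPM (9.91 to 17.8) in MI-DAPA, 5.29 CPM (2.64 to 9.46) in MI-NS and 8.55 CPM (5.88 to 12.0) in Sham-NS. Its log2 ratio for MI-DAPA against MI-NS was 1.30 (0.38 to 2.44), and 0.44 in nuclei thinned to 1000 UMIs. Against Sham-NS, 2 of 19, Sema3b and Epha4, were at least 2-fold higher in MI-DAPA and 0 lower, where 2.11% and 1.93% of all measurable genes were.

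In macrophage-like nuclei, Sema4d and Plxna1 were at least 2-fold above Sham-NS in MI-NS, 2 of 10 measurable guidance cues, with 0 at least 2-fold lower, where 5.76% and 2.12% of all measurable genes were. Sema4d, an immune cell semaphorin that binds Plxnb1 and CD72, was at 36.6 CPM (17.6 to 67.3) in MI-DAPA, 63.1 CPM (46.8 to 83.2) in MI-NS and 17.0 CPM (8.48 to 30.4) in Sham-NS. MI-NS and Sham-NS did not overlap, at a log2 ratio of 1.84 (0.93 to 2.98), and MI-DAPA overlapped both. Plxna1 was at 25.6 CPM in MI-DAPA, 45.4 CPM in MI-NS and 21.6 CPM in Sham-NS, a log2 ratio of 1.04 (0.14 to 2.08) for MI-NS against Sham-NS and of 0.70 with the stricter filter. Sema4a, known from dendritic cells and macrophages as a costimulator of T cells, was at 205 CPM (155 to 266) in MI-DAPA, 154 CPM (128 to 184) in MI-NS and 244 CPM (207 to 285) in Sham-NS, with MI-NS below Sham-NS. At the finer resolution, Sema4d was at 70.1 CPM (5 UMIs) in MI-DAPA and 130.1 CPM (36 UMIs) in MI-NS in nuclei led by Mmp12 and Ccr2, and at 30.4, 31.1 and 14.2 CPM in MI-DAPA, MI-NS and Sham-NS nuclei led by Clec10a and Cd163. The Mmp12-led cluster held 108 MI-DAPA, 381 MI-NS and 39 Sham-NS nuclei, so the make-up of the class moved with Sema4d, and its part was not tested. Cd72, a receptor for Sema4d on immune cells, was at 641 CPM in MI-DAPA, 865 CPM in MI-NS and 289 CPM in Sham-NS macrophage-like nuclei. Cd72 was among the leading genes of the Mmp12-led cluster, so the make-up of the class moved with Cd72 too. The part of the make-up in the Cd72 levels was not tested.

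Between MI-DAPA and MI-NS, 0 of 7 measurable guidance cues in macrophage-like and 0 of 4 in pericyte-like nuclei differed 2-fold in either direction, where the shares of all measurable genes were 1.03% higher and 4.73% lower in macrophage-like and 2.49% higher and 2.08% lower in pericyte-like nuclei. Between MI-DAPA and Sham-NS it was 0 of 5 in each of the 2 classes, where 1.64% of all measurable genes were higher and 2.27% lower in macrophage-like and 1.13% higher and 1.82% lower in pericyte-like nuclei. In pericyte-like nuclei, 1 of 6, Sema4c, was at least 2-fold above Sham-NS in MI-NS and 0 were lower, where 2.96% and 4.55% of all measurable genes were. Sema4c was at 52.8 CPM (28.1 to 90.3) in MI-DAPA, 154 CPM (104 to 220) in MI-NS and 59.4 CPM (37.2 to 90.0) in Sham-NS, with MI-NS alone apart. Mesothelial-like nuclei of MI-NS held Sema4c at 167 CPM, and their markers were highest in MI-NS in pericyte-like nuclei too, at 76.9 CPM in MI-NS and 5.4 CPM in Sham-NS. Their part was not tested. Plxnb1 was higher in both infarct libraries there, at 439 CPM in MI-DAPA, 415.5 CPM in MI-NS and 262 CPM in Sham-NS, with a log2 ratio of 0.67 (0.22 to 1.11) for MI-NS against Sham-NS.

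**Figure D5:**
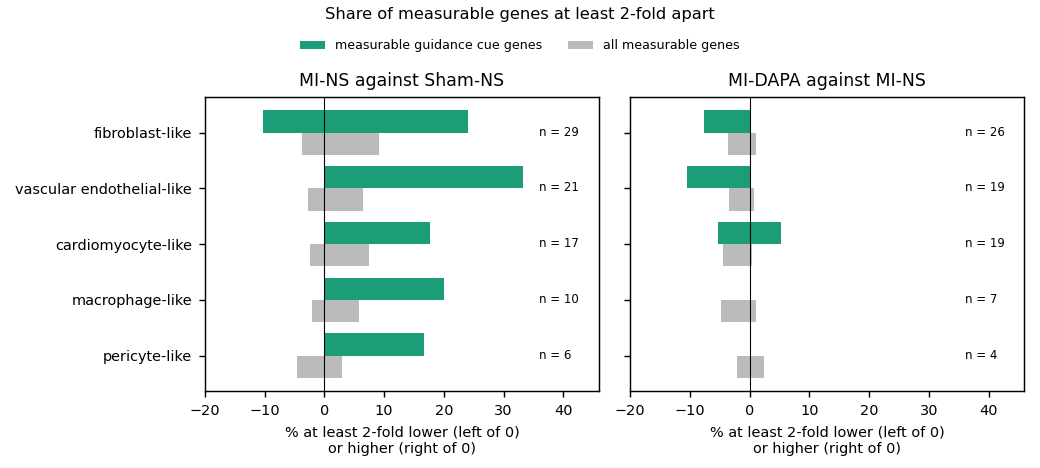
Share (percent) of measurable genes at least 2-fold higher or lower, for guidance cues and for all genes, in each of the 5 classes for MI-NS against Sham-NS and MI-DAPA against MI-NS. Of the guidance cues, 7 of 29 in fibroblast-like and 7 of 21 in vascular endothelial-like nuclei were at least 2-fold higher in MI-NS, beside 9.2% and 6.39% of all genes.

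The mesothelial-like nuclei were nearly all in 1 library, with 18 in MI-DAPA, 477 in MI-NS and 14 in Sham-NS. In MI-NS they held 12.9% of the guidance cue UMIs and 10.1% of all UMIs. For some genes the share was larger. They held 50.8% of the Slit3 UMIs of MI-NS, 50.3% of Sema3c, 48.8% of Ephb2, 36.6% of Plxna4 and 23.3% of Slit2. Their levels were 170 CPM (142 to 202) for Slit3, 230 CPM (197 to 267) for Plxna4, 126 CPM (102 to 154) for Sema3c and 108 CPM for Slit2. Over all classes together, Slit3 was at 5.16 CPM in MI-DAPA, 33.9 CPM in MI-NS and 15.3 CPM in Sham-NS, and without the mesothelial-like nuclei at 5.17, 18.6 and 14.9 CPM in the same order. Unc5b was at 24.1, 62.2 and 10.9 CPM with them and at 24.0, 63.4 and 11.0 CPM without them, so that its order of libraries did not rest on that class. In endocardial-like nuclei Unc5b was at 92.3 CPM in MI-NS and 19.3 CPM in Sham-NS, with 0 UMIs in MI-DAPA, whose interval reached 51.9 CPM.

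Co-receptors and partners of the pathway, a list of 21 genes with neuropilins, neogenin and sheddases, were also read in each class. For MI-NS against Sham-NS, 2 of 10 measurable ones were at least 2-fold higher in fibroblast-like nuclei and 0 lower, with a median log2 ratio of 0.40, and 1 of 5 in vascular endothelial-like nuclei, with a median of 0.11. Of all measurable genes, 9.2% were at least 2-fold higher and 3.77% lower in fibroblast-like nuclei, with a median of 0.12, and 6.39% higher and 2.7% lower in vascular endothelial-like nuclei, with a median of 0.09. Neo1, the netrin receptor neogenin, was at 103 CPM in MI-NS and 26.5 CPM in Sham-NS fibroblast-like nuclei. Nrp2, the co-receptor of Sema3f, was at 964 CPM in MI-DAPA, 879 CPM in MI-NS and 425 CPM in Sham-NS vascular endothelial-like nuclei. Of intracellular effectors, a list of 44, 10 of 34 measurable ones were at least 2-fold higher in MI-NS fibroblast-like nuclei and 1 lower, beside the same 9.2% and 3.77% of all genes, with a median of 0.43. They included Mical2, an actin oxidase of the family that acts downstream of plexins, at 469.8 CPM in MI-NS and 64.3 CPM in Sham-NS, and Srgap3, a GTPase activator that binds Robo receptors, at 78.1 CPM in MI-NS and 20.4 CPM in Sham-NS. In vascular endothelial-like nuclei, 0 of 27 effectors differed 2-fold, beside 6.39% higher and 2.7% lower of all genes, with a median of -0.04. Tiam1, an activator of Rac that acts with ephrin receptors, was at 63.0 CPM in MI-DAPA, 150.3 CPM in MI-NS and 39.4 CPM in Sham-NS fibroblast-like nuclei. Enah, an actin regulator that acts in axon guidance, was at 322.5 CPM in MI-DAPA, 652 CPM in MI-NS and 170.5 CPM in Sham-NS cardiomyocyte-like nuclei.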

How the data were processed

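Single-nucleus RNA was measured in 3 libraries, 1 per group. The authors deposited matrices of UMI counts, made with Cell Ranger 6.0.1 per the file headers. Per the submitters' processing notes the build was mm10 and Seurat was used. The use of intronic reads is not given in the sources used here. Every deposited barcode had at least 500 UMIs.

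Nuclei were kept with at least 300 genes and at most 10% mitochondrial UMIs. Scrublet in scanpy 1.11.5 called 1 doublet, in MI-DAPA, too few for the caller to have worked, so mixed clusters, those whose median doublet score was above 0.1, were not used (9.01% of MI-DAPA, 9.38% of MI-NS and 14.1% of Sham-NS nuclei). From 2000 variable genes without the guidance cues (10 would have been among them), 30 principal components and 15 neighbours gave Leiden clusters (leidenalg 0.10.2, resolution 1.0), named from 21 marker sets and written as "-like".

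UMIs were summed per library and class. The log2 ratio of CPM had 0.5 UMI added to each sum, and genes with 50 or more UMIs summed over the 2 libraries of a contrast were called measurable. Intervals were computed with scipy 1.17.1, and the ratio code was tested on simulated counts. With 1 library per group no p-value is given. Genes described singly were those at least 2-fold apart in a contrast that met the condition given with the fibroblast-like results, those at least 3-fold higher in 1 class than in all other nuclei of Sham-NS, and up to 4 genes per co-receptor or effector list, with a few others, such as Plxnd1, Plxna2 and Plxnb1, added after their values were seen. The members and lists were chosen with earlier results of these data known. Alternatives covered scaling (TMM factors in edgeR 4.0.16), count minimum, added count, filters, clustering, depth, doublets and shared barcodes. Gene coordinates are from the GENCODE annotation of GRCm38 and promoters from the RefSeq table on GRCm38.p6.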

Additional observations from a re-analysis of the deposited data

Results flagged for a closer look

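Sema6d, Epha4 and Plxnb1 had log2 ratios of MI-NS against Sham-NS with opposite signs in a pair of cell classes, with both 95% intervals clear of 0. Sema6d was at 1.63 in vascular endothelial-like and -0.42 in fibroblast-like nuclei. Epha4 was at 0.44 in cardiomyocyte-like and -2.03 in fibroblast-like nuclei. Plxnb1 was at -0.68 in cardiomyocyte-like and 0.67 in pericyte-like nuclei. The level intervals of Epha4 in cardiomyocyte-like nuclei of MI-NS and Sham-NS overlapped. In the Vcan-led fibroblast-like cluster the ratio was -0.31 (-0.91 to 0.35) for Sema6d and -0.62 (-2.19 to 1.33) for Epha4. Both of these intervals include 0, and the part of the cluster make-up was not tested. The differences between classes were not tested, since each group was 1 library.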

How the results depend on the processing

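No paired analysis was possible because each group had 1 library. Of the 30 ratios of guidance cues described singly for being 2-fold apart, 29 kept their direction under each of the 10 other settings that applied to them and 13 stayed at least 2-fold apart under each; the exception in direction was Epha7 in fibroblast-like nuclei (MI-NS against Sham-NS), at -0.12 in nuclei thinned to 1000 UMIs. Unc5b, Ephb3, Epha4 and Plxnc1 in fibroblast-like, Sema6d and Unc5b in vascular endothelial-like and Sema4d in macrophage-like nuclei stayed at least 2-fold apart between MI-NS and Sham-NS under each.

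Counts of guidance cues at least 2-fold apart moved by over 1.5 times in several settings, and the cause was not tested except that a higher UMI minimum or thinning leaves fewer genes to count. The share of all genes at least 2-fold apart can also move with a setting and is not given here. These counts therefore describe the guidance cues only. For MI-NS against Sham-NS, the 10 in fibroblast-like nuclei became 16 with a minimum of 20 UMIs, 2 with 200 UMIs, 6 with the stricter filter on nuclei and 2 in thinned nuclei. The 7 in vascular endothelial-like nuclei became 4 with TMM factors, 4 with 200 UMIs, 2 in thinned nuclei and 4 with mixed clusters kept. The 3 in cardiomyocyte-like nuclei became 1 with TMM factors, 8 with 20 UMIs and 1 in thinned nuclei. For MI-DAPA against MI-NS, the 2 in fibroblast-like nuclei became 0 with TMM factors, 6 with 20 UMIs, 0 at Leiden resolution 2.0, 4 with classes by marker level, 0 with guidance cues allowed in clustering and 1 with shared barcodes removed. The 2 in vascular endothelial-like nuclei became 0 with 200 UMIs, the stricter filter, classes by marker level or thinning. The 2 in cardiomyocyte-like nuclei became 6 with 20 UMIs, 0 with 200 UMIs and 1 in thinned nuclei.

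Within 1 cluster, an alternative added after seeing the data, the counts in the Vcan-led fibroblast-like cluster were 2 for MI-NS against Sham-NS and 0 for MI-DAPA against MI-NS, and that in the Timp4-led endothelial-like cluster for MI-DAPA against MI-NS was 1. A cluster has fewer measurable genes than its class. In the Vcan-led cluster, Unc5b (32 and 2 UMIs) and Slit2 (41 and 4 UMIs) were not measurable for MI-NS against Sham-NS and so were not counted. In the Comp-led cluster, Unc5b, Slit2 and Ephb3 were at least 2-fold lower in MI-DAPA than in MI-NS, and in the Prnd-led cluster Unc5b and Sema7a were. In the Vcan-led cluster, MI-NS against Sham-NS was at -1.03 for Epha7 and 0.39 for Plxnc1, and MI-DAPA against Sham-NS at 0.0389 for Epha4 and 0.57 for Plxnc1, each opposite in sign to the class and based on few UMIs.

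TMM factors moved the median log2 ratio of all genes for MI-NS against Sham-NS to -0.10 in cardiomyocyte-like and -0.12 in vascular endothelial-like nuclei, against 0.13 and 0.09 on the CPM scale. They also turned the sign of 4 list medians: co-receptors in vascular endothelial-like nuclei (MI-NS against Sham-NS) to -0.10, effectors in fibroblast-like nuclei (MI-DAPA against MI-NS) to 0.0010, and effectors in cardiomyocyte-like nuclei to -0.0091 (MI-NS against Sham-NS) and 0.23 (MI-DAPA against MI-NS). The highest class was kept by 39 of 51 genes with classes by marker level and by 40 with the stricter filter. Depth limits the 15 genes under 50 UMIs and the classes under 100 nuclei, and 1 library per group leaves animal differences unmeasured.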
